A study of Mus musculus with 6 samples.

Results

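The genes described here are the inhibitor of DNA binding genes Id1, Id2, Id3 and Id4, which bone morphogenetic proteins (BMPs) switch on in many cells, and 6 genes of the pathway that leads to them: the ligand gene Bmp4, the receptor genes Bmpr1a and Bmpr2 and the SMAD genes Smad1, Smad5 and Smad6. They were chosen by gene symbol, and all 10 were found among the 18057 genes of the deposited table. The RNA came from 4T1 cells, a line grown from a mouse mammary tumour. The 6 sequenced libraries were 3 of cells treated with DMSO as solvent control and 3 of cells treated with BRQ. An inhibitor of DHODH, which makes pyrimidines de novo, stands in the title of the series, and the question is how gene expression differed with it. Dose and duration are not in the labels used here, all 6 titles carry the unexplained letters DHO, and nothing says whether replicates were separate cultures, so p-values measure only the spread between these libraries, which may be technical.

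BMP ligands bind pairs of type I and type II receptors at the cell surface. The activated type I receptor phosphorylates Smad1, Smad5 and Smad9 proteins, which join Smad4, enter the nucleus and induce target genes, the Id genes foremost among them. Id proteins carry a helix-loop-helix domain without the basic stretch that touches DNA, so they pair with E proteins and other basic helix-loop-helix factors and keep them off DNA. In mammary epithelium and its tumours, Id1 is known for holding back differentiation and favouring growth.

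Values are FPKM, read counts scaled to gene length and library size. The reads behind them, recovered from the steps between values, summed to 30771866 to 33916620 per library. Of 10552 genes averaging 1 FPKM or more, 8698 (82.4%) were called different by limma at a Benjamini-Hochberg adjusted p under 0.05, 5143 higher (48.7%) and 3555 lower (33.7%) under BRQ. This split was 4250 to 4432 after quantile normalization. The median log2 fold change of all tested genes was 0.12, and each of 3 other scalings (median-ratio, TMM, quantile) brought it to between -0.01 and 0.00. All 7 epithelial markers listed for 4T1 were detected, with a summed level of 1986 to 2038 FPKM under DMSO and 1513 to 1560 under BRQ, where 5 of them fell and 2 rose. These directions are on the deposited scale, with the median shift left in. The rise of Epcam was small (75.6 to 80.0 FPKM under DMSO, 80.4 to 83.0 under BRQ).

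BRQ replicates 2 and 3 stood apart in transcripts of other cell types. The 15 hepatocyte markers summed to 21.8 to 25.6 FPKM under DMSO and 20.3 in BRQ replicate 1, but to 1.14 and 0.679 in BRQ replicates 2 and 3, with Alb at 0 in the last. The 15 macrophage markers summed to 36.1 to 39.3 FPKM under DMSO and to 71.6, 140.5 and 135 in BRQ replicates 1, 2 and 3. Most of the sum in BRQ replicate 1 was Cd68 (50.2 FPKM, against 18.7 to 23.5 under DMSO) and Cd14 (12.4, against 6.13 to 6.64). Lyz2 (3.56, against 4.44 to 5.38) and Ctss (2.4, against 1.99 to 2.75) were not higher there. In BRQ replicates 2 and 3 Lyz2 stood at 35.4 and 36.4 FPKM and Ctss at 18.1 and 19.6. The 6 endothelial markers, a cell type known for high Id1 and Id3, summed to 0.244 to 0.49 FPKM under DMSO and 1.07 to 1.34 under BRQ. Most of the BRQ sum was Tie1 (0.098 to 0.136 FPKM under DMSO, 0.655 to 0.906 under BRQ). Pecam1 was higher too (0.058 to 0.246 and 0.27 to 0.324), while Cdh5 overlapped between groups (0.048 to 0.175 and 0.036 to 0.156). Kdr and Emcn were at 0 in all 3 DMSO libraries and Tek at 0 in 1 library of each group. The 7 fibroblast markers summed to 4.87 to 5.1 FPKM under DMSO and 8.02 to 8.91 under BRQ. Most of it was Pdgfra (4.31 to 4.49 FPKM under DMSO, 7.4 to 8.26 under BRQ). The other fibroblast markers stood at 0.271 FPKM or less in every library, and none of them lay higher under BRQ without overlap. A further fit set BRQ replicate 1 alone against DMSO, with its spread taken from the DMSO libraries. In it the 7 genes called with all libraries changed in the same directions, and their log2 fold changes stand beside their results. That of Id1 was -0.03. BRQ replicate 1 itself held 1.07 FPKM of endothelial and 8.02 FPKM of fibroblast markers, 7.64 FPKM of the latter being Pdgfra. The part of these other transcripts in the results was not tested. Whether the cultures held cells of these types was not tested either. In bulk RNA, fewer cells of a type and less RNA per cell cannot be told apart.

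Id2 and Id3 transcripts rose under BRQ while Id1 transcripts did not pass the test, and transcripts of both BMP receptors and of Smad5 fell. Smad1 and Smad6 rose. Of the 8 genes that reached the level for testing, 4 were higher, 3 lower and 1 not called, and the groups of the same 7 did not overlap. Among all tested genes the groups did not overlap for 83.7%, with BRQ higher for 49% and lower for 34.8%. Since 82.4% of all tested genes were called, the number called is close to the background, and only the sizes and directions describe these genes. Id4 lay below the level for testing and Bmp4 was listed at 0 in 5 of 6 libraries. The median log2 fold change of the 8 was 0.13, against 0.12 for all tested genes.

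**Figure D1:**
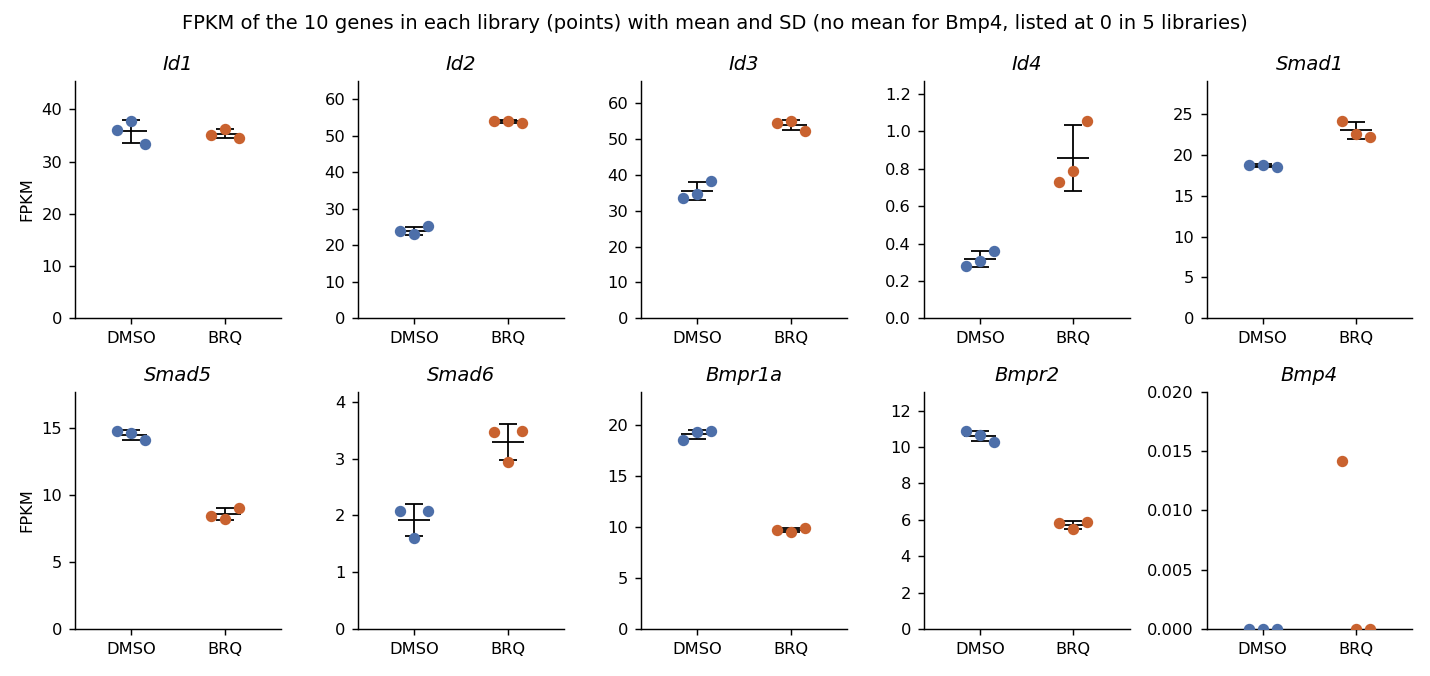
FPKM of each of the 10 genes (vertical axes, each from 0) in the 3 DMSO and 3 BRQ libraries (points), with the mean and SD of each group except for Bmp4. The groups overlap for Id1, and Bmp4 has a value above 0 in BRQ replicate 1 only; Id2, Id3, Id4, Smad1 and Smad6 lie higher under BRQ in every library and Smad5, Bmpr1a and Bmpr2 lower.

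Id2, known in the mammary gland for its part in lobule formation and in lymphoid cells for innate lymphocyte development, measured 23.8, 23.0 and 25.1 FPKM in DMSO replicates 1, 2 and 3 and 54.1, 54.1 and 53.4 FPKM in BRQ replicates 1, 2 and 3. The groups lay far apart, and the 3 BRQ libraries differed among themselves by less than the DMSO libraries did. Id2 thus rose 2.25-fold, from 24.0 ± 1.07 to 53.9 ± 0.404 FPKM (SD, n = 3; limma log2 fold change 1.14 with SE 0.0379, adjusted p = 3.29e-09), and its log2 fold change was 1.14 with BRQ replicate 1 alone. Id2 had the largest rise of the 8 tested genes under each alternative setting.

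Id3, a close relative that BMP and TGF-beta signals both regulate, measured 33.5, 34.5 and 38.3 FPKM under DMSO and 54.4, 55.2 and 52.4 FPKM under BRQ, again with no overlap. Its rise was 1.52-fold, from 35.5 ± 2.55 to 53.98 ± 1.45 FPKM (limma log2 fold change 0.59 with SE 0.0489, adjusted p = 1.37e-06; 0.61 with BRQ replicate 1 alone). Most of the spread under DMSO came from replicate 3, and without it the log2 fold change was 0.65. After quantile normalization it was 0.37, still called higher.

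Id1, the member most used as a readout of BMP signalling, measured 36.1, 37.9 and 33.5 FPKM under DMSO and 35.1, 36.3 and 34.6 FPKM under BRQ. The BRQ values lay inside the range of the DMSO values. The log2 fold change was -0.02 with a 95% interval of -0.12 to 0.09 (limma adjusted p = 0.74, SE 0.0462), so a rise of the size of Id2 or Id3 lies outside the interval. Relative to the median of all tested genes Id1 was 0.13 lower, and limma called it lower on 3 other scalings, median-ratio (-0.14, adjusted p = 0.01765), TMM (-0.15, 0.0132) and quantile (-0.21, 0.00273). Without DMSO replicate 2 its log2 fold change was 0.02.

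Id4, which in the mammary gland marks basal cells, was the scarcest Id gene. It measured 0.281, 0.308 and 0.363 FPKM under DMSO and 0.73, 0.789 and 1.06 FPKM under BRQ, which rest on 38, 38 and 49 recovered reads against 99, 104 and 144. The groups did not overlap, and the mean was 2.71-fold higher under BRQ. How often groups separate among genes this low was not computed. At its mean of 0.588 FPKM over the 6 libraries it was not among the tested genes. With no filter, where 55.5% of 17181 genes were called, it was higher by 0.49 in log2(FPKM + 1), where a change of a low gene is shown too small (SE 0.0714, limma adjusted p = 0.00147). With limma-voom on recovered reads of genes averaging 10 reads or more, a test chosen after the data were seen in which 46% of 12571 genes were called higher, it was higher by 1.41 on the log2 scale (SE 0.308, adjusted p = 0.00018).

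The windows from 250 bases before to 50 bases after the annotated start of Id2 and Id3, which rose, are shown first, because BMP-induced SMAD proteins are known to bind GC-rich sites and the letters CAGAC in regulatory DNA of Id genes. Sequences are those of RefSeq on GRCm38.p6, in which 9 of the 10 genes, all but Id1, were matched. Capitals mark GGCGCC and the motif CAGAC on both strands, so that a match on the other strand reads GTCTG.
Id2 promoter window, chr12:25096043-25096342, minus strand, GRCm38.p6: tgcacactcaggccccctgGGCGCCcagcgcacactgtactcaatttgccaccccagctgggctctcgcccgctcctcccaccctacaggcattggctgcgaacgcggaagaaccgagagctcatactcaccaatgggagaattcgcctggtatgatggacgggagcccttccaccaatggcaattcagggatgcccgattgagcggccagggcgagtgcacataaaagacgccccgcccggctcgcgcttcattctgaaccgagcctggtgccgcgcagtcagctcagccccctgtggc
Id3 promoter window, chr4:136143572-136143871, plus strand, GRCm38.p6: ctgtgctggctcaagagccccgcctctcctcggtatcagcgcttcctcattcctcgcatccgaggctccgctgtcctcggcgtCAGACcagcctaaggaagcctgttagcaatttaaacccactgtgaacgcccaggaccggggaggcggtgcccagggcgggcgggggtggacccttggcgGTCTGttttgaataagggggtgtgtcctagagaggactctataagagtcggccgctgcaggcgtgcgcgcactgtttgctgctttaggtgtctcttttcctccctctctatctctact
GGCGCC, which reads the same on both strands, stood once in the Id2 window, 231 bases before the start, and was not found in these letters of Id3. CAGAC stood at 167 and 68 bases before the start of Id3, the second as GTCTG, and was not found in the Id2 window. The CAGAC farther from the start of Id3 overlaps a match to TGACG (as CGTCA), part of the cyclic AMP response element, which begins 170 bases before the start. The E-box CANNTG, which Id partners bind, stood once in the Id2 window. Of all 32851 windows of the same length, 11.9% held GGCGCC on either strand. The motif CAGAC was in 49.6% of them, the E-box in 72.3% and the motif TGACG in 20.8%. Windows of the 9 matched genes held 59.3% to 79.3% G and C, against a median of 52.7% for all windows. GGCGCC was found for 5 of the 9 (Id2, Id4, Bmpr1a, Bmpr2 and Smad5), a set that holds genes that rose and genes that fell, and CAGAC for Id3 and Smad5. The 9 genes had 11 windows, as Smad5 had several starts, and a gene was counted if any of its windows held the motif. No window of Smad5 held both motifs. The shares given for all windows count single windows, so they are not the same measure.

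FPKM are scaled to gene length, so levels of the Id genes could be summed within a library. The 4 genes together measured 93.6, 95.7 and 97.3 FPKM under DMSO and 144.4, 146.4 and 141.5 FPKM under BRQ. Their make-up moved from Id1 toward Id2. Id1 made up 37.5% ± 2.73 of the sum under DMSO and 24.5% ± 0.257 under BRQ (SD, n = 3), and Id2 25.1% ± 0.926 and 37.4% ± 0.407. Id3 held 37.1% ± 2.01 and 37.5% ± 0.381, a difference smaller than its spread, and Id4 0.331% ± 0.0371 and 0.597% ± 0.132. The FPKM ratio of Id2 to Id1 was 0.659, 0.608 and 0.751 under DMSO and 1.54, 1.49 and 1.54 under BRQ, so the order of these genes was turned over in every library. The ratio of Id3 to Id1 went from 0.995 ± 0.13 to 1.53 ± 0.0197. In a two-sided exact permutation test the shares of Id1, Id2 and Id4, the sum and both ratios each gave p = 0.1, the smallest that 3 against 3 libraries allow, and 0.138 adjusted over the 11 comparisons of this kind. The share of Id3 gave an exact p = 0.9.

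**Figure D2:**
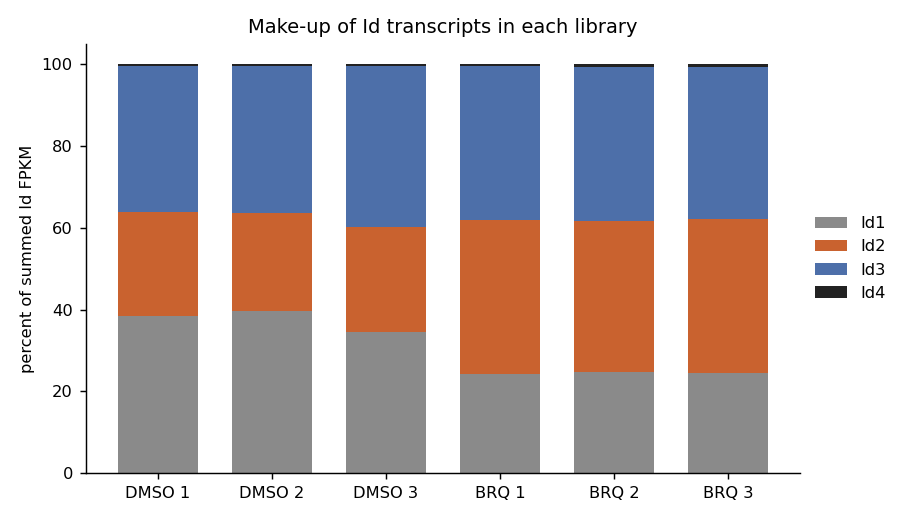
Stacked bars give each Id gene's percent of the summed FPKM of Id1, Id2, Id3 and Id4 (vertical axis, percent) in each of the 6 libraries. The Id1 part is 34.4% to 39.6% under DMSO and 24.3% to 24.8% under BRQ, while the Id2 part is 24.0% to 25.8% and 37.0% to 37.8%.

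The receptors fell. Bmpr1a, the widely expressed type I BMP receptor, measured 18.6, 19.3 and 19.4 FPKM under DMSO and 9.75, 9.53 and 9.9 FPKM under BRQ, with no overlap. The fall was 1.96-fold, from 19.1 ± 0.476 to 9.73 ± 0.183 FPKM (limma log2 fold change -0.91 with SE 0.0418, adjusted p = 2.32e-08; -0.90 with BRQ replicate 1 alone). Bmpr2, the type II receptor dedicated to BMP ligands, measured 10.9, 10.7 and 10.3 FPKM under DMSO and 5.84, 5.48 and 5.87 FPKM under BRQ. It fell 1.85-fold, from 10.6 ± 0.286 to 5.73 ± 0.217 FPKM (limma log2 fold change -0.79 with SE 0.0505, adjusted p = 2.21e-07; -0.76 with BRQ replicate 1 alone). In the ratio of the receptors the groups overlapped, and Bmpr1a stood at 1.8 ± 0.0894 times Bmpr2 in FPKM under DMSO and 1.7 ± 0.036 times under BRQ (two-sided exact permutation p = 0.2, adjusted over the 11 comparisons 0.22). Their start windows are shown because the 2 genes moved together, marked in the same way.
Bmpr1a promoter window, chr14:34502497-34502796, minus strand, GRCm38.p6: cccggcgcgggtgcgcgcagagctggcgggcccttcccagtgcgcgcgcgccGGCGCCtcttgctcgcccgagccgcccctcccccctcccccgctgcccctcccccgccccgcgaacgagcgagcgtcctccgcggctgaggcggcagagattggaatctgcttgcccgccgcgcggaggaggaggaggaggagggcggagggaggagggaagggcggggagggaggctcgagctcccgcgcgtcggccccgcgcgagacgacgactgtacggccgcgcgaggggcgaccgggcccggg
Bmpr2 promoter window, chr1:59764029-59764328, plus strand, GRCm38.p6: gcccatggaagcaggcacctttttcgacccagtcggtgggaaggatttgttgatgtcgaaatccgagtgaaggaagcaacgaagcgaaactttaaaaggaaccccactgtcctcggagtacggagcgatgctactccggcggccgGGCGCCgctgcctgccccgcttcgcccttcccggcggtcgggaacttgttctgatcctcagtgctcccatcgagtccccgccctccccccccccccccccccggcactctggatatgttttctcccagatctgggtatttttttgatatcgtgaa
Each held GGCGCC once, 198 bases before the start in Bmpr1a and 105 bases before it in Bmpr2, and no match to the other 3 motifs.

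Bmp4, which encodes a ligand of these receptors, was listed at 0 FPKM in all 3 DMSO libraries and in BRQ replicates 2 and 3, and at 0.0142 FPKM in BRQ replicate 1. No difference was detectable at this depth.

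The SMAD genes divided. Smad1 and Smad5 encode closely related proteins that BMP receptors phosphorylate. Smad1 measured 18.8, 18.8 and 18.5 FPKM under DMSO and 24.2, 22.6 and 22.3 FPKM under BRQ, a rise of 1.23-fold with no overlap (18.7 ± 0.152 to 23.0 ± 1.06 FPKM; limma log2 fold change 0.29 with SE 0.0418, adjusted p = 0.000106; 0.36 with BRQ replicate 1 alone). Relative to the median of all tested genes this was 0.17, and it ranged from 0.14 to 0.36 over the 16 alternatives. Smad5 measured 14.8, 14.6 and 14.1 FPKM under DMSO and 8.46, 8.2 and 9.08 FPKM under BRQ. It fell 1.69-fold, from 14.5 ± 0.359 to 8.58 ± 0.453 FPKM (limma log2 fold change -0.70 with SE 0.0497, adjusted p = 4.86e-07; -0.71 with BRQ replicate 1 alone). The ratio of Smad1 to Smad5 in FPKM went from 1.29 ± 0.0217 to 2.69 ± 0.213, while their sum was 33.2 ± 0.51 under DMSO and 31.6 ± 0.981 under BRQ, with overlapping groups (two-sided exact permutation p = 0.1 and 0.2, adjusted 0.138 and 0.22).

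Smad6, an inhibitory SMAD that BMP signals induce and that blocks them in return, was the lowest of the tested genes. It measured 2.08, 1.59 and 2.07 FPKM under DMSO and 3.47, 2.93 and 3.48 FPKM under BRQ, from 145 to 207 and 285 to 349 recovered reads. It rose 1.72-fold with no overlap (1.91 ± 0.278 to 3.3 ± 0.314 FPKM; limma log2 fold change 0.56 with SE 0.0907, adjusted p = 0.000218; 0.62 with BRQ replicate 1 alone).

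**Figure D3:**
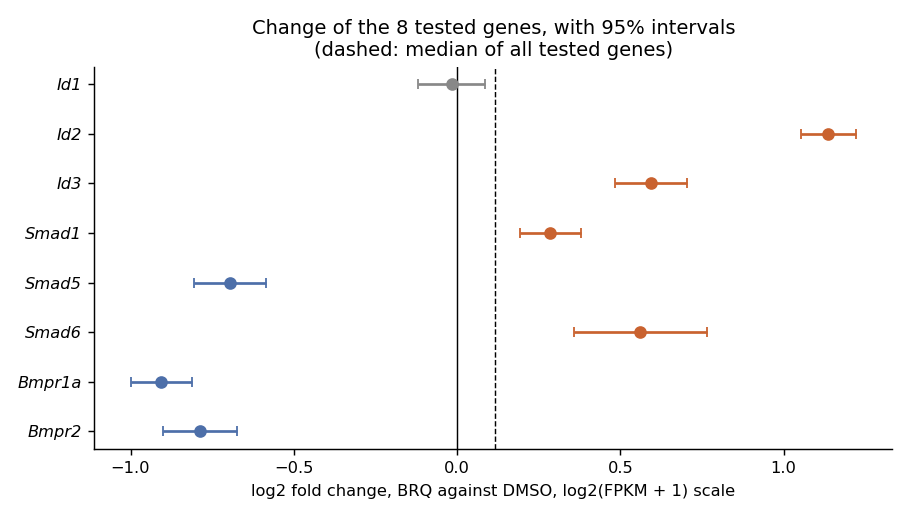
Log2 fold change of the 8 tested genes (horizontal axis, BRQ against DMSO, log2(FPKM + 1) scale) with 95% intervals from limma; orange genes were called higher, blue lower and grey not called, and the dashed line is the median of all tested genes, 0.12. Id2 lies farthest to the right at 1.14 and Bmpr1a farthest to the left at -0.91, and the interval of Id1 spans 0.

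Ordered by FPKM, the genes under DMSO ran Id1, Id3, Id2, Bmpr1a, Smad1, Smad5, Bmpr2, Smad6, Id4 and Bmp4. Id1 and Id3 did not differ beyond their spread, nor did Bmpr1a and Smad1. Under BRQ the order was Id3, Id2, Id1, Smad1, Bmpr1a, Smad5, Bmpr2, Smad6, Id4 and Bmp4, and Id3 and Id2 did not differ beyond their spread. Bmpr1a and Smad1, level under DMSO, thus stood at 9.73 ± 0.183 and 23.0 ± 1.06 FPKM under BRQ.

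Change went with gene length in these libraries. Across the 10373 tested genes with a genomic span in GENCODE M21 (98.3%), log2 fold change and span had a Spearman's rho of -0.494, a description over genes that share the same libraries. With these genes in 4 equal classes by span, the shortest class, up to 10.2 kb, had a median log2 fold change of 0.47 and 70.7% called higher. In the longest class, from 51.8 kb, the median was -0.31, with 65.4% called lower and 17.8% higher. Id1 (1.16 kb), Id3 (2.26 kb) and Id2 (3.34 kb) belong to the shortest class, where Id2 lay above the middle range of 0.08 to 0.83 (lower to upper quartile), Id3 inside it and Id1 below it. Bmpr1a (92.6 kb) and Bmpr2 (115.6 kb) belong to the longest class, both below its middle range of -0.62 to 0.00. Smad1 (61.1 kb) and Smad6 (68.98 kb) belong to that same class and lay above its middle range. Smad5 (39.4 kb) lies in the class from 23.25 to 51.8 kb, with a median of 0.05, and below its middle range of -0.27 to 0.37. The part of gene span in these changes was not tested.

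**Figure D4:**
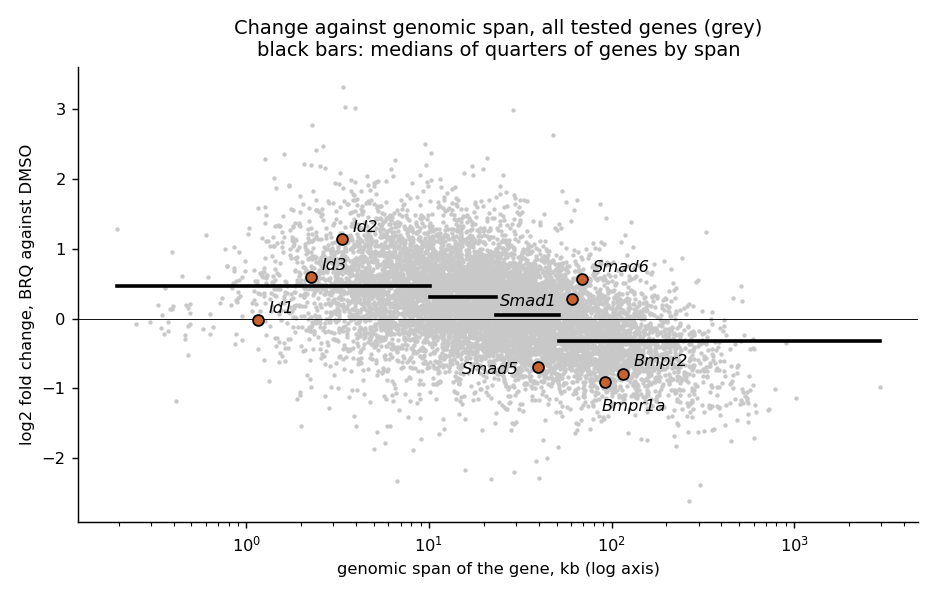
Log2 fold change, BRQ against DMSO (vertical axis), against genomic span in kb (horizontal log axis) for 10373 tested genes (grey) and the 8 tested genes described here (orange, named). Black bars are medians of 4 equal classes of genes by span, 0.47 in the shortest and -0.31 in the longest; Id1 lies below its bar, and Smad1 and Smad6 lie above theirs.

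Little of the annotated transcript sequence of these genes is shared with other genes. Only annotated transcripts were compared, so how the reads themselves were assigned was not tested. In GENCODE M21 transcripts, Id1, Id3, Smad1 and Smad6 share no 50-base window with another gene, and the others share 0.1% to 3.77% of theirs, Bmpr1a the most. Bmpr1a has 290 exonic bases in common with Gm17110 on the opposite strand, and Smad5 100 with Gm27301 on the same strand. Id4 shares 253 exonic bases with genes on the opposite strand. The sources used here do not give the strand setting of the counting, so reads from these stretches could not be told apart.

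The rest of the pathway was read from 6 lists of 88 genes, of which 85 were in the table and 43 were tested. Of these 43, 26 fell, 13 rose and 4 were not called, with a median log2 fold change of -0.31. Among all tested genes 33.7% were called lower and 48.7% higher, with a median of 0.12, and the counts of each list below stand against these shares without a test of the difference. On the 3 other scalings (median-ratio, TMM, quantile) 28, 28 and 29 fell and 10, 10 and 9 rose. By span, 16 of the 43 lay in the longest class of genes, with 14 lower, where 65.4% of all genes were lower. In the next class 8 of 13 were lower, against 35.4% of all its genes. In the class from 10.2 to 23.2 kb 2 of 3 were higher, against 62.98%, and in the shortest class 7 of 11 were higher, against 70.7%. Genes named below beyond the 2 largest rises, the 2 largest falls and the most abundant gene of each list were named after their values were seen.

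Among the 12 BMP ligand genes measured, 6 were listed at 0 in every library, and only Bmp7 was tested. Bmp7, which binds Acvr1 and other type I receptors, measured 11.1, 11.1 and 10.7 FPKM under DMSO and 9.64, 9.72 and 10.3 FPKM under BRQ. The groups did not overlap, but the gap between them was small (limma log2 fold change -0.14 with SE 0.0471, adjusted p = 0.0215). In limma the call did not survive leaving out DMSO replicate 1 (adjusted p = 0.05996), DMSO replicate 2 (0.0577), BRQ replicate 1 (0.0767) or BRQ replicate 2 (0.0605), and with BRQ replicate 1 alone (0.0539), over a range of 0.000493 to 0.0767 for all alternatives.

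Of 6 other tested receptor and co-receptor genes 4 fell and none rose, where 33.7% of all tested genes fell and 48.7% rose. They were the type II receptors Acvr2a (4.84 ± 0.18 to 3.49 ± 0.408 FPKM, log2 fold change -0.38) and Acvr2b (1.85 ± 0.0278 to 1.29 ± 0.0209 FPKM, -0.31), the type I receptor Acvr1 (12.1 ± 0.577 to 10.1 ± 0.409 FPKM, -0.24) and the co-receptor Rgma (5.9 ± 0.323 to 4.51 ± 0.196 FPKM, -0.32). The co-receptor Eng, the most abundant of them, measured 26.9 ± 1.34 and 25.3 ± 1.19 FPKM (limma adjusted p = 0.131) and became a fall without DMSO replicate 2 (0.0433) and on the 3 scalings. Rgmb measured 4.48 ± 0.355 and 3.93 ± 0.116 FPKM (adjusted p = 0.0565) and was called lower without DMSO replicate 3 (0.0454), after the 3 scalings and by limma-voom. Bmpr1b, the other type I BMP receptor, was not tested, at 0.01 to 0.02 FPKM. Acvrl1, also untested, lay lower under BRQ without overlap (0.109 ± 0.0203 to 0.0363 ± 0.0195 FPKM), on 12 to 17 recovered reads against 2 to 7. The groups of Bmpr1b and of the untested Hjv overlapped.

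Of 6 tested genes for antagonists outside the cell 4 were higher and 1 lower, and 3 higher on each of the 3 scalings, where 48.7% of all tested genes were higher. Fstl3, a secreted protein that binds activins and some BMPs, rose from 18.2 ± 1.1 to 35.1 ± 0.119 FPKM (limma log2 fold change 0.91 with SE 0.0449, adjusted p = 3.53e-08). Twsg1, which binds BMPs together with chordin, rose from 40.6 ± 1.19 to 63.3 ± 1.63 FPKM (0.63). Dand5 rose from 1.61 ± 0.335 to 2.58 ± 0.435 FPKM, and Nbl1 from 12.5 ± 1.02 to 14.8 ± 1.13 FPKM, a call lost after the 3 scalings (adjusted p of 0.184 to 0.241). Crim1, a membrane protein that binds BMPs, fell from 28.8 ± 0.966 to 22.9 ± 0.49 FPKM. Fst, which encodes follistatin, measured 1.11 ± 0.216 and 1.33 ± 0.106 FPKM (adjusted p = 0.176). The classical antagonist Nog stood at 0.21 to 0.52 FPKM over the 6 libraries and was not tested. Chrd, which encodes chordin, was not tested either. It lay lower under BRQ without overlap (0.207 ± 0.0408 to 0.082 ± 0.0331 FPKM), on 23 to 31 recovered reads against 6 to 14. Bmper went from 2 to 8 reads under DMSO to 0 in every BRQ library. The groups of the other untested antagonists overlapped.

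Of 19 other tested genes for SMADs and regulators inside the cell 14 were lower and 4 higher, with a median log2 fold change of -0.50, against 33.7% lower, 48.7% higher and a median of 0.12 for all tested genes. Smad4, the partner that all receptor-activated SMADs share, fell from 20.5 ± 1.24 to 12.7 ± 0.545 FPKM (log2 fold change -0.65). Smad9 was too low to be tested. It lay higher under BRQ without overlap, but on 2, 1 and 1 recovered reads in DMSO replicates 1, 2 and 3. BRQ replicates 1, 2 and 3 held 33, 9 and 3. The groups of Bambi, also untested, overlapped. The ubiquitin ligases Smurf1 and Smurf2, which mark SMADs and receptors for breakdown, fell from 41.2 ± 0.215 to 24.1 ± 0.4 and from 31.0 ± 0.656 to 20.6 ± 0.973 FPKM. The largest falls were those of Tab1, an activator of the kinase encoded by Map3k7, from 8.36 ± 0.584 to 2.33 ± 0.369 FPKM (-1.49, SE 0.0865, limma adjusted p = 1.06e-07), and of the SMAD phosphatase gene Ctdspl (3.44 ± 0.164 to 1.52 ± 0.107 FPKM, -0.82). Map3k7 itself rose from 16.5 ± 0.462 to 24.2 ± 1.6 FPKM (0.52). Tob1, which encodes an antiproliferative protein that binds BMP-activated SMADs and dampens them, rose from 10.9 ± 0.998 to 37.8 ± 2.44 FPKM (1.71, SE 0.0664, adjusted p = 8.41e-09), and its lowest BRQ value of 36.3 lay above its highest DMSO value of 11.8.

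Fkbp1a, the most abundant of this list and a guard of resting type I receptors, was called higher (178 ± 4.2 to 189 ± 1.21 FPKM, log2 fold change 0.09), but its direction turned on the 3 scalings (median-ratio -0.039, TMM -0.044, quantile -0.092), the last a call in the opposite direction (limma adjusted p = 0.00183), and its call was lost with BRQ replicate 1 alone. Smad3 was called higher by 0.09 (28.1 ± 0.592 to 30.0 ± 0.449 FPKM, limma adjusted p = 0.0275), turned to -0.031, -0.036 and -0.081 on these scalings, and lost its call without DMSO replicate 1 (0.0589), DMSO replicate 3 (0.0863) or BRQ replicate 1 (0.0948) and with BRQ replicate 1 alone (0.0817). Smad7, the other inhibitory SMAD, measured 11.2 ± 0.261 and 12.1 ± 0.843 FPKM (log2 fold change 0.10, 95% interval -0.03 to 0.22, adjusted p = 0.132), was called higher without BRQ replicate 2 (0.0207) and turned to -0.023, -0.028 and -0.018 on the scalings.

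Of 16 other genes that BMPs are known to induce, 4 were tested and 12 lay below the level for testing, Msx1, Msx2 and Dlx5 at 0 in every library. Among these untested genes Dlx3 (0.249 ± 0.0832 to 0.78 ± 0.137 FPKM) and Tbx2 (0.255 ± 0.0499 to 0.558 ± 0.0664 FPKM) lay higher under BRQ without overlap. Dlx3 rests on 14 to 30 recovered reads under DMSO and 56 to 77 under BRQ, and Tbx2 on 22 to 35 and 62 to 75. Hey1 lay lower by a narrow margin (0.245 ± 0.0941 to 0.13 ± 0.08 FPKM), on 29, 15 and 15 recovered reads against 14, 3 and 15. DMSO replicates 2 and 3 and BRQ replicate 3 held the same 15 reads, so its lack of overlap rests on scaling to library size. The groups of the others overlapped. How often groups separate among all genes below the level for testing was not computed, so these separations are read as no result. Klf10, an early response gene of TGF-beta and BMP signals, rose from 26.7 ± 1.31 to 74.9 ± 1.18 FPKM (limma log2 fold change 1.46 with SE 0.0393, adjusted p = 1.01e-09). Junb, a subunit of the transcription factor AP-1, rose from 236 ± 1.18 to 442 ± 10.7 FPKM (0.90). Runx2, the master regulator of bone formation, fell from 10.4 ± 0.285 to 5.14 ± 0.532 FPKM (-0.90). Gata3, a regulator of luminal mammary cells, fell from 28.7 ± 1.09 to 17.8 ± 0.492 FPKM (-0.66).

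Of 7 tested helix-loop-helix partners of Id proteins 3 were higher and 4 lower, and with 82.4% of all tested genes called these counts are read as no result about the list. The 3 E protein genes did not move together. Tcf3, the most abundant of them, rose from 43.5 ± 1.17 to 53.4 ± 1.48 FPKM (log2 fold change 0.29), a call lost after quantile normalization (adjusted p = 0.215). Tcf12 fell 2.53-fold, from 14.6 ± 0.393 to 5.77 ± 0.203 FPKM (-1.20, SE 0.0482, limma adjusted p = 9.87e-09), and Tcf4 from 2.17 ± 0.0315 to 1.04 ± 0.0455 FPKM (-0.64). Twist1, a factor of mesenchymal cells that dimerises with E proteins, rose from 29.3 ± 1.26 to 37.9 ± 0.543 FPKM (0.36), and the Notch target Hes1 from 21.1 ± 0.392 to 28.03 ± 1.75 FPKM (0.39). Bhlhe40, the most abundant gene of this list, fell from 66.9 ± 0.893 to 45.5 ± 2.06 FPKM (-0.55). Bhlhe41 measured 7.47 ± 0.76 and 6.5 ± 0.207 FPKM with overlapping groups, and its call (adjusted p = 0.0425) was lost when DMSO replicate 2 or 3 or any BRQ library was left out (0.0602 to 0.148), with no filter (0.103) and with BRQ replicate 1 alone (0.216).

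**Figure D5:**
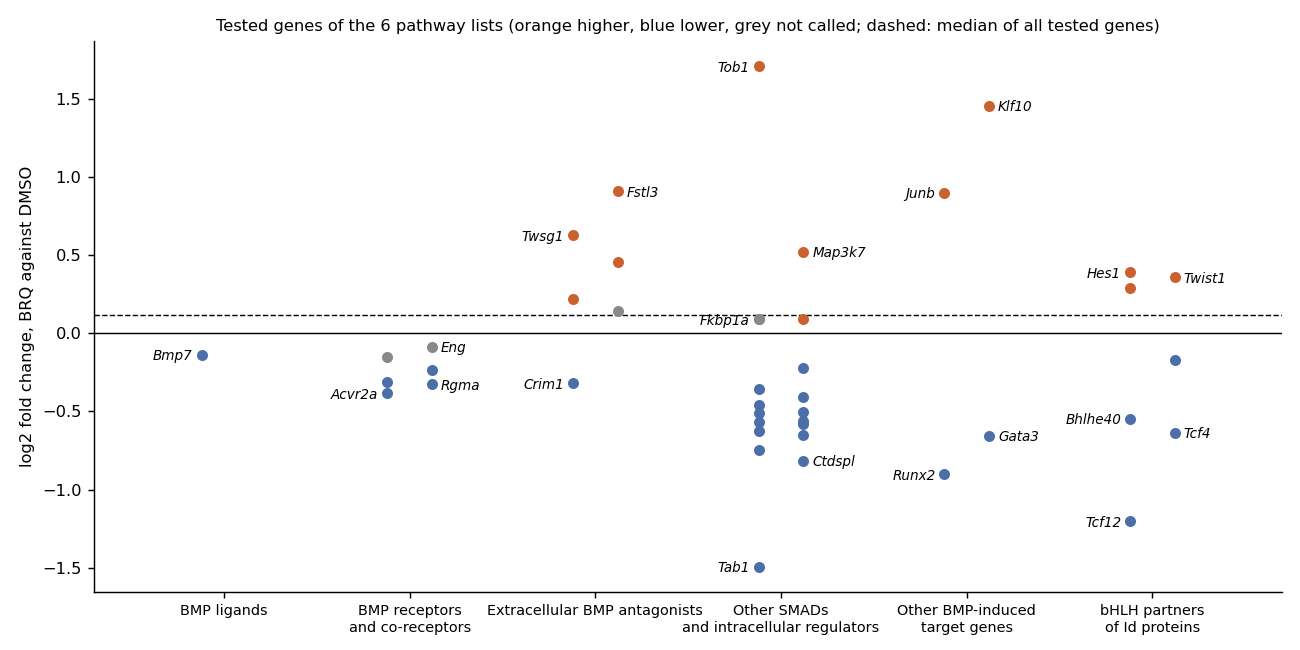
Log2 fold change, BRQ against DMSO (vertical axis), of the 43 tested genes of the 6 pathway lists (columns; each point is a gene, orange called higher, blue lower, grey not called; dashed line, the median of all tested genes, 0.12). Most SMAD and regulator genes lie below 0 with Tob1 (1.71) and Tab1 (-1.49) at the extremes, and 5 of 6 antagonists lie above 0, 4 of them called.

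The genes whose profile over the 6 libraries was most like that of an Id gene were sought among 8074 genes averaging 5 FPKM or more, with symbols of predicted gene models left out, by the Euclidean distance between log2(FPKM + 1) values centred on the DMSO mean. Nearest to Id2 were Mtch1, which encodes a protein of the mitochondrial carrier family (distance 0.0566; 93.2 ± 1.56 to 205 ± 0.926 FPKM), Rraga, a GTPase of amino acid sensing (0.0687), and Eaf1, a partner of ELL elongation factors (0.076). Nearest to Id3 were Tsnax (0.0543), Chmp5 (0.0572) and Kcnab2 (0.0691). Nearest to Id1 were Arhgef16 (0.0501), Ube2b (0.0618) and Kif3c (0.0622). Many genes lay almost as near: 144 within 0.2 of Id2, 385 of Id3 and 569 of Id1.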

How the data were processed

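RNA of 6 libraries of 4T1 cells, 3 given DMSO and 3 given BRQ, was sequenced; groups and replicate numbers come from the titles. The authors deposited 1 table of FPKM, not pooled, and per the submitters' processing notes used fastp, HTSeq and the mouse build GRCm39. The sources used here do not give aligner, annotation release, strand setting or versions. A further 8 value columns match none of the samples and were left out.

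Genes averaging 1 FPKM or more were tested on log2(FPKM + 1), two-sided, with limma 3.58.1 in R 4.3.3 (eBayes with a trend, no covariates), Benjamini-Hochberg adjusted over all 10552 tested genes and called under 0.05. n-fold changes are ratios of mean FPKM. Whole reads were recovered from the FPKM steps, up to a common divisor per gene, for all 10552 tested genes within 0.0214 reads, and on simulated FPKM for 98.2% of 1912 genes. limma was tested on simulated data. Alternatives were pseudocount 0.1, no filter and 5 FPKM, 3 scalings, a robust prior, limma-voom on recovered reads, the replicate block and libraries left out. Spans and shared windows come from GENCODE M21 (GRCm38), promoters from RefSeq (GRCm38.p6), matched by symbol. The genes and lists were chosen with earlier results of these data known. The rule for named genes took all 10, the 2 largest rises and falls and the most abundant gene per list, and the 3 nearest profiles per tested Id gene; other genes were named after their values were seen.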

Additional observations from a re-analysis of the deposited data

How the results depend on the processing

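The 7 calls among the 8 tested genes kept their direction and their side of the threshold under each alternative in which the gene was tested: Id2 ranged from 0.93 to 1.17 (log2), Id3 from 0.37 to 0.65, Smad1 from 0.14 to 0.36, Smad6 from 0.47 to 0.78, Smad5 from -0.82 to -0.67, Bmpr1a from -1.03 to -0.89 and Bmpr2 from -0.90 to -0.76. Smad6 was not tested at a filter of 5 FPKM. The log2 fold change of Id1 turned to 0.023 without DMSO replicate 2 and ranged from -0.063 to 0.023 with a library left out. Directions also turned on the 3 scalings (median-ratio, TMM, quantile) for Fkbp1a (-0.0389, -0.0443 and -0.0917), Smad3 (-0.0309, -0.0361 and -0.0808) and Smad7 (-0.0233, -0.0283 and -0.0175); these scalings take off the median shift of 0.12. The share of Id3 among Id transcripts moved by 0.375 percentage points, and by -0.275 to 1.53 with a library left out. Counts of called genes ranged from 6984 at a filter of 5 FPKM, with fewer genes tested, to 9534 without a filter. The other value columns of the table were not analysed here.

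No shared effect of the replicate number was seen. Deviations from the group means of same-numbered libraries correlated at 0.004, -0.032 and -0.034 over 10552 genes, and not every library correlated best with its own number. Whether the libraries were paired by design is not in the labels used here. With the number as a replicate block 5112 genes were called higher and 3507 lower, the 7 called genes were called in the same directions, and Smad3 lost its call (limma adjusted p = 0.05002). Depth limits Bmp4 (0 FPKM in 5 libraries) and Id4 (38 to 144 reads).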
